A study of Mus musculus with 25 samples.

Results

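The 36 genes described here encode the machinery that releases synaptic vesicles and recovers them, and they were chosen by symbol from the 24421 gene symbols in the deposited comparison tables. They fall into 5 classes: 7 SNARE and SNARE recycling genes, 7 calcium sensors and fusion regulators, 7 active zone and priming genes, 10 vesicle protein genes and 5 endocytosis and recycling genes. All 36 occur in all 4 tables. RNA with a poly(A) tail was sequenced from whole hypothalamus, the brain region that governs feeding, energy use and hormone release, of wild-type C57BL/6J mice aged 3 months. Dams ate either a hypercaloric diet with 52% fat and much sucrose (HCD) or regular chow (RD), starting 1 month ahead of mating and lasting through lactation, and pups were weaned onto either diet.

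Groups are named by the dam's diet, then by the offspring's diet. The HCD-HCD Male group (3 samples) was compared with the RD-HCD Male group (3 samples), and HCD-HCD Female (3 samples) with RD-HCD Female (3 samples). In offspring weaned to chow, HCD-RD Male (3 labelled samples) was compared with RD-RD Male (4 labelled samples), and HCD-RD Female (3 samples) with RD-RD Female (3 samples). The files behind the comparison of males on chow hold 6 libraries where 7 samples are labelled, so the numbers that entered it in each group are not known here. Each of the 4 comparisons therefore asks what the dam's diet changed within 1 sex and 1 weaning diet, and no sample is used in more than 1 of them. Below, the comparisons go by the offspring: males on HCD, females on HCD, males on chow and females on chow. Litters are not named in the labels, and the p-values therefore reflect only how much these samples vary. A maternal diet given before mating, in pregnancy and in lactation cannot be split into those periods here.

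All values are from the authors' deposited comparison tables, which give for each gene a mean normalized count over the libraries of both groups, a log2 fold change with its standard error (SE), and a p-value with its adjusted p. Positive log2 fold changes are taken to mean a higher level in offspring of HCD dams. The tables do not name the numerator, and for the offspring on chow this reading has only the groups' order behind it, so all signs of a table would turn together if it were wrong. Values of single samples are not given, because no label ties a library to a sample. The mean normalized counts of a deposited table summed to between 15402649 and 26951335. In the authors' deposited tables Xist, which is transcribed in female cells, had means of 3.33 and 0.447 normalized counts for males on HCD and on chow. For females on HCD and on chow, the authors' deposited tables give Xist means of 3893 and 5611 normalized counts. As a description of the tissue, all 16 markers of hypothalamic neurons were listed above 0 in the 4 tables. They summed to between 167 and 480 CPM (counts scaled to a common total). An adjusted p was given for 13 of them in males on HCD and 9 in females on HCD. It was given for 6 in males on chow and 11 in females on chow. The 10 markers of cortex and hippocampus summed to between 2242 and 3522 CPM. These lists hold different genes, so their sums do not measure the share of either tissue.

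As background, a vesicle is docked at the active zone, a protein scaffold at the presynaptic membrane, and is primed there by Munc13 and RIM proteins. A SNARE protein on the vesicle then winds around SNARE proteins of the plasma membrane, complexin holds the assembly ready, and calcium binding to synaptotagmin triggers fusion. NSF and its SNAP adaptors pull the spent SNARE complexes apart, and clathrin-dependent endocytosis with dynamin recovers the membrane. Hypothalamic neurons use this machinery for amino acid transmitters, and related proteins serve the large vesicles that carry peptides and hormones. In whole tissue, a lower level can mean fewer cells of a type or less RNA per cell, and these cannot be told apart.

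Levels were compared between genes per length, as CPM per kilobase of merged exon, computed from the mean normalized counts of the authors' deposited tables and averaged over the 4 tables. Complexin gene Cplx1 stood highest at 388, followed by Rab3a at 320, Syp at 284, Snap25 at 277 and Vamp2 at 245 CPM per kilobase. The calcium sensor Syt2 at 2.94 and the vesicle glycoprotein gene Sv2c at 0.881 CPM per kilobase stood lowest, and the mean level of Cplx1 was 441 times that of Sv2c. Of the 10 lowest members, 6 were active zone genes, and the highest active zone gene, Unc13c, reached 17.0 CPM per kilobase. Neighbours in this order often overlapped: Syp ranged over 281 to 286, inside the range of Snap25 at 247 to 306 CPM per kilobase. Sv2c ranged over 0.475 to 1.43 CPM per kilobase, entirely below every other member.

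**Figure D1:**
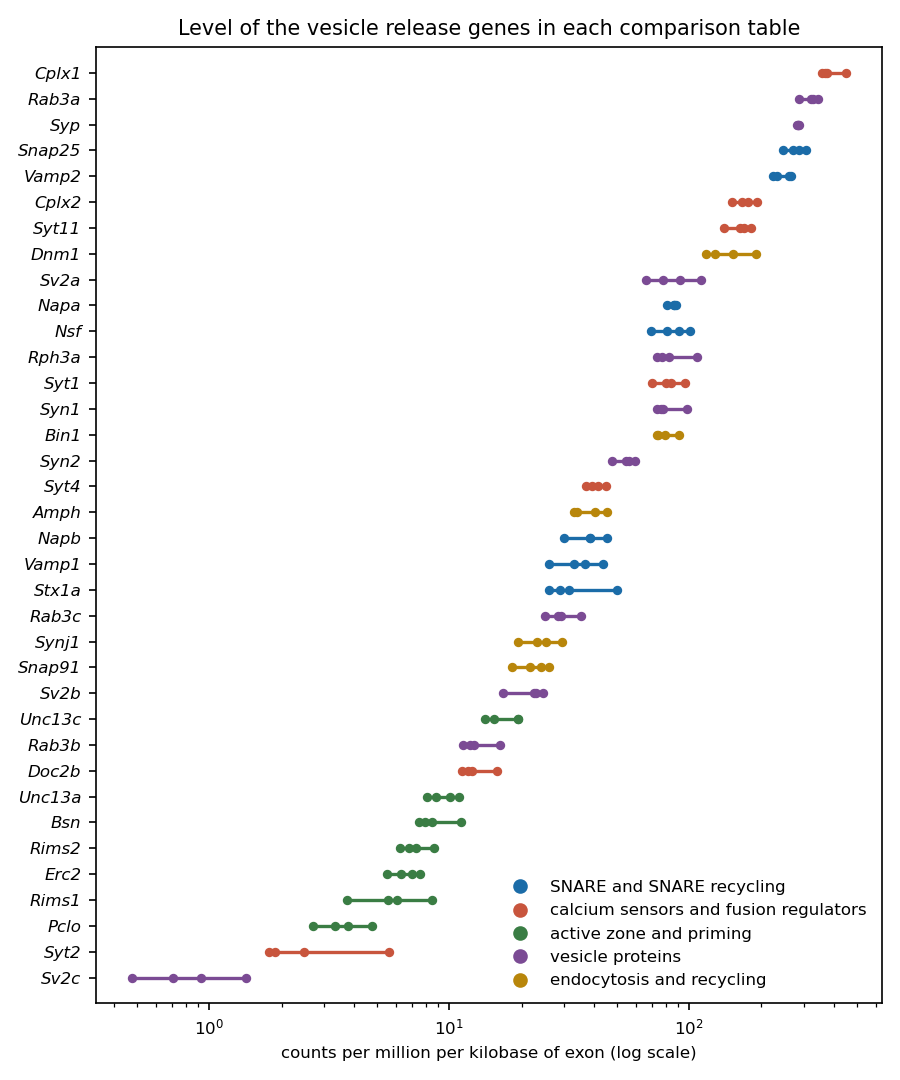
Level of each of the 36 genes, in CPM per kilobase of exon on a log axis, with 1 point for each of the 4 deposited comparison tables and a line over their range; colours mark the classes. Cplx1 is at the top with a mean of 388, Sv2c at the bottom with 0.881, and 6 of the 10 lowest genes belong to the active zone class.

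Few members were called for a difference between the dams' diets. Of 143 tests of a member in a comparison, 6 passed the threshold (adjusted p under 0.05) in the authors' deposited tables, each a different gene: Sv2c fell in males on HCD, Napb and Rims1 fell and Rab3a rose in females on HCD, Snap25 rose in males on chow and Sv2b rose in females on chow. The other 30 genes passed in no comparison. The 4 calls in males and females on HCD did not hold once the test statistic was divided by its robust spread over all genes. Their adjusted p was then between 0.116 and 0.358. That spread was 1.17 in males on HCD and 1.12 in females on HCD, but 0.847 in males on chow and 0.961 in females on chow. Division by a value under 1 enlarges a statistic, so this step could not remove the calls of Snap25 and Sv2b. In males on HCD 1 of 36 members passed, where 0.163% of all genes did, and in females on HCD 3 of 36, where 1.52% of all genes did. In males on chow 1 of 35 members passed, against 0.0851% of all genes, and in females on chow 1 of 36, against 0.346% of all genes. At an unadjusted p under 0.05 stood 4 of 36 members in males on HCD, where 8.14% of all genes did. In females on HCD 13 of 36 members did, against 13.3% of all genes. In males on chow 3 of 35 did (4.30% of all genes), and in females on chow 4 of 36 (6.16% of all genes).

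Taken as a set of 36, the members were split between the directions. Positive log2 fold changes numbered 16 of 36 in males on HCD, 17 of 36 in females on HCD, 18 of 35 in males on chow and 19 of 36 in females on chow in the authors' deposited tables. The members' median log2 fold change was -0.06, -0.07, 0.01 and 0.05 in that order, where the median of all genes tested was -0.01, 0.04, 0.00 and 0.01. The synaptotagmin gene Syt11 has no p-value in the authors' deposited table of males on chow, and its log2 fold change there was 0.03 ± 0.35 (SE).

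**Figure D2:**
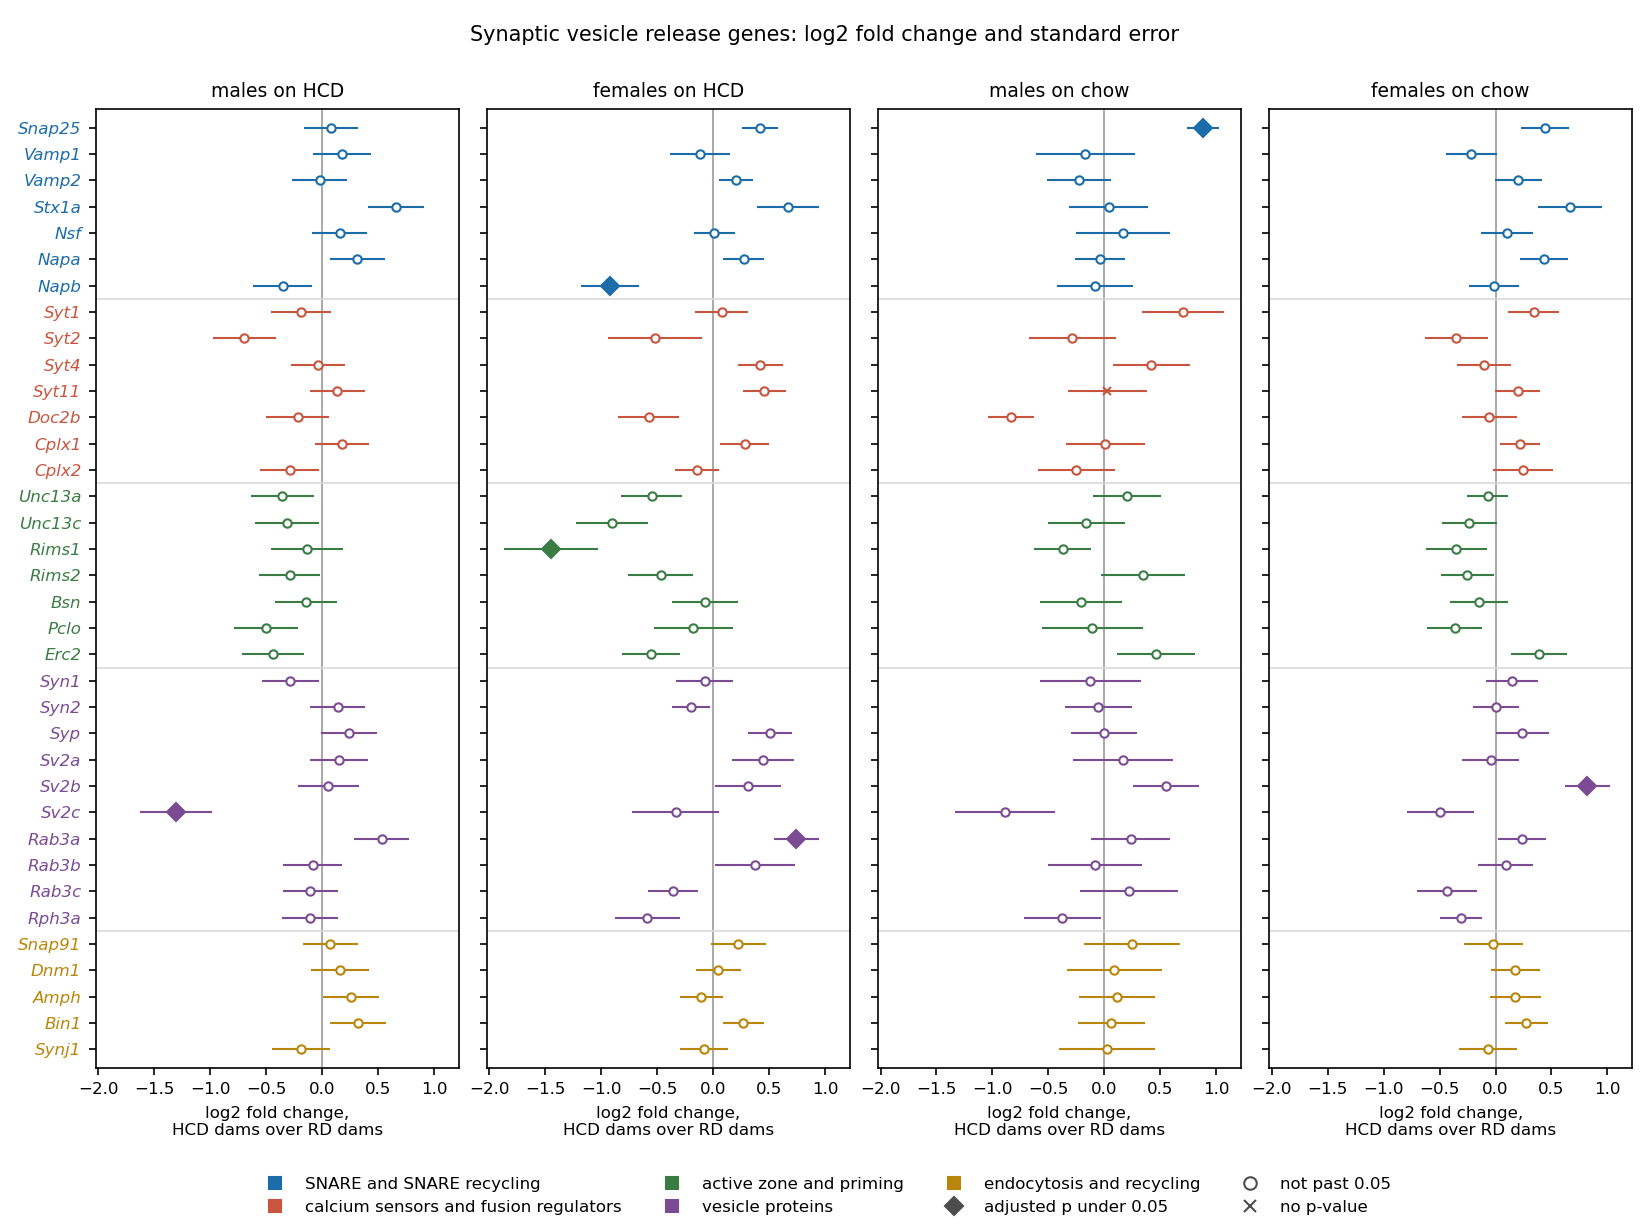
Log2 fold change (horizontal axis, offspring of HCD dams over offspring of RD dams) with its standard error for each of the 36 genes, in 1 panel per comparison; filled diamonds passed an adjusted p of 0.05, open circles did not, and the cross marks Syt11, which has no p-value in males on chow. The 6 diamonds are Sv2c at -1.30, Napb at -0.92, Rims1 at -1.45, Rab3a at 0.74, Snap25 at 0.88 and Sv2b at 0.82.

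The promoters of the called genes are shown because these are the members that passed the threshold in a comparison as deposited. Each is the stretch of 250 bases before the transcription start in RefSeq's table for mouse build GRCm38.p6, written 5′ to 3′ on the gene's strand. Of the 36 members 30 have an entry in that table, and of the 6 called genes 5 do. Snap25 is named only. Capitals mark the letters GGGCGG (a GC box, the site type bound by Sp1-family factors), TGACG (the core of the cyclic AMP response element) and TATAAA (the core promoter letters bound by the TATA-binding protein), searched on both strands. No matches overlapped one another in these windows.

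Sv2c: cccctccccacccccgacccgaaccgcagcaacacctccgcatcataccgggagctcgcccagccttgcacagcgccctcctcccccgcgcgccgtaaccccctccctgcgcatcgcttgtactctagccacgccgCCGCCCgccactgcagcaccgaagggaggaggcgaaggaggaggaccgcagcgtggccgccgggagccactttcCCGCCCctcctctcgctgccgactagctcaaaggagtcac
Rims1: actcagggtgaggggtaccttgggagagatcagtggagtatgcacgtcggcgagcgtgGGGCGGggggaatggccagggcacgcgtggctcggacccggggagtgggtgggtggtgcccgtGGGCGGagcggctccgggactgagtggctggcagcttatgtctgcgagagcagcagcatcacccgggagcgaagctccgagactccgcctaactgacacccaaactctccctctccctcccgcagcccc
Rab3a: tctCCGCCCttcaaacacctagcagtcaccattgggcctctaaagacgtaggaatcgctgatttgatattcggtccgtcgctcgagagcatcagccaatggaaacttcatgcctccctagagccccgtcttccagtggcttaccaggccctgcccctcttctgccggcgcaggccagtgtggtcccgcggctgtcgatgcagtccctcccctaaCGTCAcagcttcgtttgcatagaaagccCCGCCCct
Napb: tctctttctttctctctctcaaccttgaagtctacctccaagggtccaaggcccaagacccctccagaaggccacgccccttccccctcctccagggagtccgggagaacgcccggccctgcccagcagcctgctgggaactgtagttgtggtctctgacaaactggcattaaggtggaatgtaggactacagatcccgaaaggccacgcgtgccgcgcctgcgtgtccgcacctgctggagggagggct
Sv2b: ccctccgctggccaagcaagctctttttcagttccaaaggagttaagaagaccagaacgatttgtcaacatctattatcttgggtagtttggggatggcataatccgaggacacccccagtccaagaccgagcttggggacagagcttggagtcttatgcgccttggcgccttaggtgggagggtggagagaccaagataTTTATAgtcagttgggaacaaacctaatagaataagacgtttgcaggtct

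The Sv2c stretch lies on the minus strand at chr13:96132578-96132827, is 70.8% G or C, and holds 2 GC boxes. That of Rims1, on the minus strand at chr1:22806159-22806408 and 68.0% G or C, also holds 2 GC boxes. The Rab3a stretch, on the plus strand at chr8:70754453-70754702 and 58.8% G or C, holds 2 GC boxes and 1 core of the cyclic AMP response element. For Rab3a 2 starts are listed, and the stretch before the most upstream is shown. Napb, on the minus strand at chr2:148732421-148732670 and 61.2% G or C, has none of these letters in its window. For Sv2b the table lists 4 starts, and the most upstream is shown, on the minus strand at chr7:75309263-75309512, with 48.8% G or C and 1 TATA box. Among all 32851 promoter windows of this length, 32.74% hold a GC box, 17.77% the cyclic AMP response core and 12.37% the TATA letters. A match of letters is a description and not a bound site.

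Among the SNARE genes, Snap25, which encodes a plasma membrane SNARE, gave the smallest adjusted p of any member. In males on chow Snap25 rose in offspring of HCD dams by a log2 fold change of 0.88 ± 0.14 (SE), 1.84-fold, by the authors' deposited table (DESeq, adjusted p = 2.31e-06). Its mean there was 29928 normalized counts. The other 3 log2 fold changes of Snap25 in the authors' deposited tables were also positive and did not pass: 0.08 ± 0.24 in males on HCD, 0.42 ± 0.16 in females on HCD (adjusted p = 0.165) and 0.44 ± 0.21 in females on chow (adjusted p = 0.764; SE throughout). If both chow tables ran the other way, Snap25 would be positive in 2 comparisons and negative in 2. Its call in males on chow would then be a fall. Snap25 (ENSMUSG00000027273.13) lies on the plus strand of chromosome 2 at 136713453 to 136782428 in GRCm38, and shares no exon bases with another gene model in GENCODE M21.

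In the same comparison, males on chow, 12 of 12 markers of thalamus and habenula had positive log2 fold changes (median 0.48, 0 past the adjusted threshold), and their part in the Snap25 result was not tested. Of the markers of neurons in general, 5 of 14 were positive there, with a median log2 fold change of -0.10. Summed over the marker list, the thalamus and habenula genes made up 1162 CPM in the authors' deposited table of males on chow, against 751 to 1087 in the other 3 tables, and none of them was listed at 0.

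Napb, which encodes a brain form of the adaptor that brings NSF to spent SNARE complexes, fell in females on HCD. Its log2 fold change in the authors' deposited table was -0.92 ± 0.26 (SE; adjusted p = 0.0372), at a mean of 4803 normalized counts. In males on HCD it was -0.35 ± 0.26, in males on chow -0.09 ± 0.34 and in females on chow -0.02 ± 0.22, none of which passed. The related adaptor gene Napa, expressed in most tissues, had log2 fold changes of 0.32 ± 0.25, 0.27 ± 0.18, -0.04 ± 0.22 and 0.43 ± 0.21 in the same order in the authors' deposited tables, with no pass. Nsf, the ATPase itself, stayed between 0.01 and 0.16 in log2 fold change over the 4 comparisons.

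The syntaxin gene Stx1a, whose protein joins that of Snap25 in the plasma membrane side of the SNARE complex, gave like values in 3 comparisons. Its log2 fold change in the authors' deposited tables was 0.66 ± 0.25 in males on HCD, 0.67 ± 0.27 in females on HCD and 0.67 ± 0.29 in females on chow, against 0.04 ± 0.36 in males on chow, and no adjusted p was under 0.212. The vesicle SNAREs showed little: Vamp1 had log2 fold changes between -0.21 and 0.18, and Vamp2 between -0.23 and 0.21. Over the 7 SNARE genes, 5 of 7 were positive in males on HCD, females on HCD and females on chow (medians 0.16, 0.21 and 0.20), and 3 of 7 in males on chow (median -0.04).

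No calcium sensor or complexin gene passed in any comparison. Nearest was Doc2b, which encodes a high-affinity calcium sensor for spontaneous and asynchronous release: in males on chow its log2 fold change in the authors' deposited table was -0.83 ± 0.20 (SE; adjusted p = 0.0536). Doc2b gave -0.22 ± 0.28 in males on HCD, -0.58 ± 0.27 in females on HCD and -0.05 ± 0.25 in females on chow. Its exons share 241 bases, 5.53% of their length, with a gene model on the opposite strand, and the sources used here do not say whether counting used strand.

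Syt1, the fast calcium sensor for synchronous release, had log2 fold changes of -0.19 ± 0.27 in males on HCD, 0.07 ± 0.23 in females on HCD, 0.71 ± 0.37 in males on chow and 0.34 ± 0.23 in females on chow in the authors' deposited tables. Syt2, the sensor of fast hindbrain and inhibitory synapses, was negative throughout, at -0.70 ± 0.28, -0.52 ± 0.42, -0.29 ± 0.39 and -0.35 ± 0.28 in the same order. For Syt11, a synaptotagmin that does not bind calcium, the highest value of its class in females on HCD was 0.46 ± 0.19, with an adjusted p of 0.237. Syt4, a synaptotagmin of dense-core vesicles, ranged from -0.11 to 0.42 in log2 fold change. The complexin genes, Cplx1 and Cplx2, clamp and aid fusion. Cplx1 ranged from 0.01 to 0.28 and Cplx2 from -0.29 to 0.25. The class median was -0.19 in males on HCD (2 of 7 positive), 0.07 in females on HCD (4 of 7), -0.12 in males on chow (3 of 6) and 0.20 in females on chow (4 of 7).

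The active zone genes were negative as a class in offspring on HCD, though most did not pass. All 7 had negative log2 fold changes in males on HCD (median -0.31) and in females on HCD (median -0.55), while 3 of 7 were positive in males on chow (median -0.11) and 1 of 7 in females on chow (median -0.23). Only Rims1, which encodes a RIM scaffold that ties vesicles to calcium channels, passed. In females on HCD Rims1 fell by 1.45 ± 0.42 (SE) on the log2 scale, as the authors' deposited table gives it (adjusted p = 0.0450), at a mean of 627 normalized counts. The other 3 values of Rims1 in the authors' deposited tables were -0.13 ± 0.32 in males on HCD, -0.37 ± 0.26 in males on chow and -0.35 ± 0.28 in females on chow.

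In females on HCD 4 of the 7 active zone genes had an unadjusted p under 0.05 in the authors' deposited table. Besides Rims1 these were the priming genes Unc13a at -0.55 ± 0.28 (adjusted p = 0.362) and Unc13c at -0.91 ± 0.32 (adjusted p = 0.124), and Erc2, which encodes a scaffold of the cytomatrix, at -0.56 ± 0.26 (adjusted p = 0.319). The giant scaffold genes Bsn and Pclo were nearer to 0 there, at -0.07 ± 0.30 and -0.18 ± 0.36, and Rims2 stood at -0.47 ± 0.29. In males on HCD the lowest was Pclo, at -0.50 ± 0.28, and the highest Rims1. Erc2 was the highest of the class in males on chow, at 0.46 ± 0.35, and in females on chow, at 0.39 ± 0.25, where Pclo was lowest, at -0.37 ± 0.25.

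**Figure D3:**
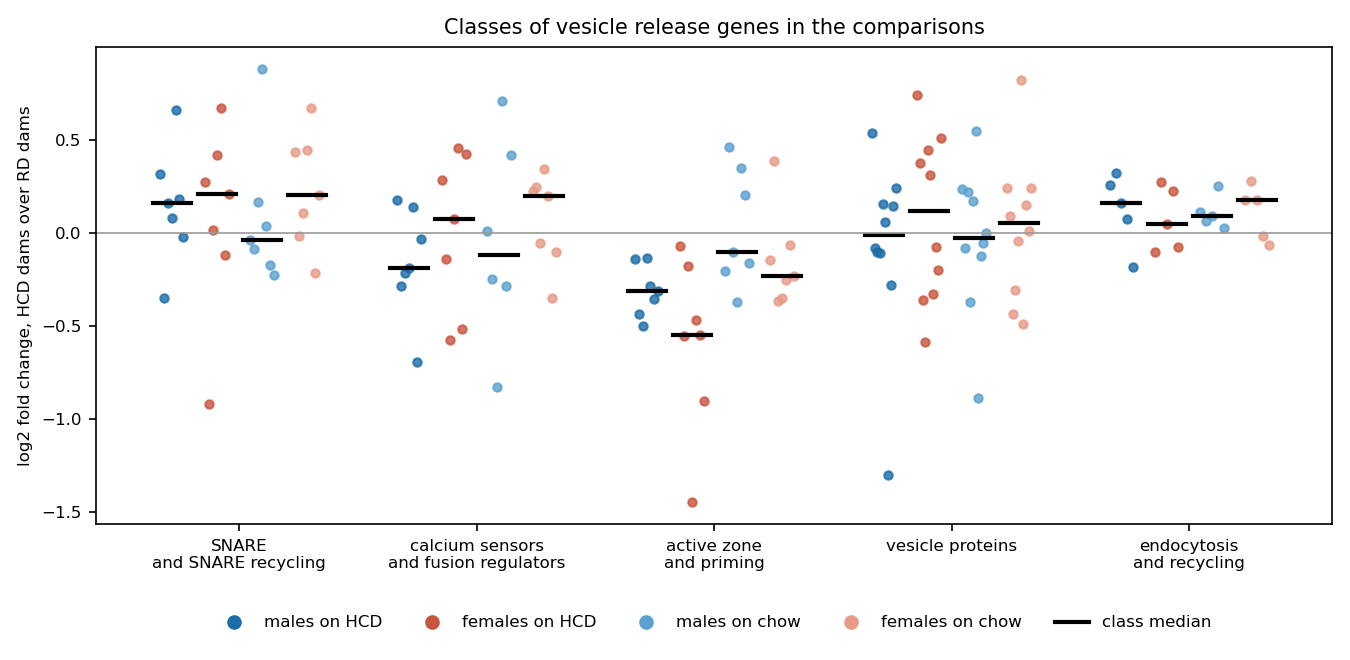
Log2 fold change (vertical axis, offspring of HCD dams over offspring of RD dams) of the tested genes of each class, with 1 column of points per comparison and a black bar at the class median. The active zone medians are -0.31, -0.55, -0.11 and -0.23 in the order drawn, and the endocytosis medians 0.16, 0.05, 0.09 and 0.17.

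Active zone genes have long transcripts, and fold changes moved with length over all genes in part of these tables. Their merged exons in GENCODE M21 had a median of 10.4 kb (range 7.36 to 22.5 kb), against 4.38 kb over all genes tested in males on HCD. Across all genes, Spearman's correlation of log2 fold change with exon length was -0.49 in males on HCD, -0.40 in females on HCD, 0.09 in males on chow and -0.21 in females on chow. Across the 36 members (35 in males on chow) it was -0.54, -0.51, 0.09 and -0.49 in that order. Genes are not independent replicates, and the genes of a table share its libraries.

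Among all genes with exons within the active zone range, 81.2% of 3025 were negative in males on HCD, with a median log2 fold change of -0.25. In females on HCD 70.5% of 2999 were negative (median -0.21), in males on chow 45.4% of 2670 (median 0.03) and in females on chow 64.5% of 2949 (median -0.09). The other members over 5 kb had median log2 fold changes of 0.07, 0.01, 0.06 and 0.01 in the same order. With the trend over exon length and GC content removed, the active zone median was -0.08 (2 of 7 positive) in males on HCD, -0.34 (2 of 7) in females on HCD, -0.06 (3 of 7) in males on chow and -0.16 (2 of 7) in females on chow. Without the trend Rims1 in females on HCD stood at -1.27, with an adjusted p of 0.168.

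**Figure D4:**
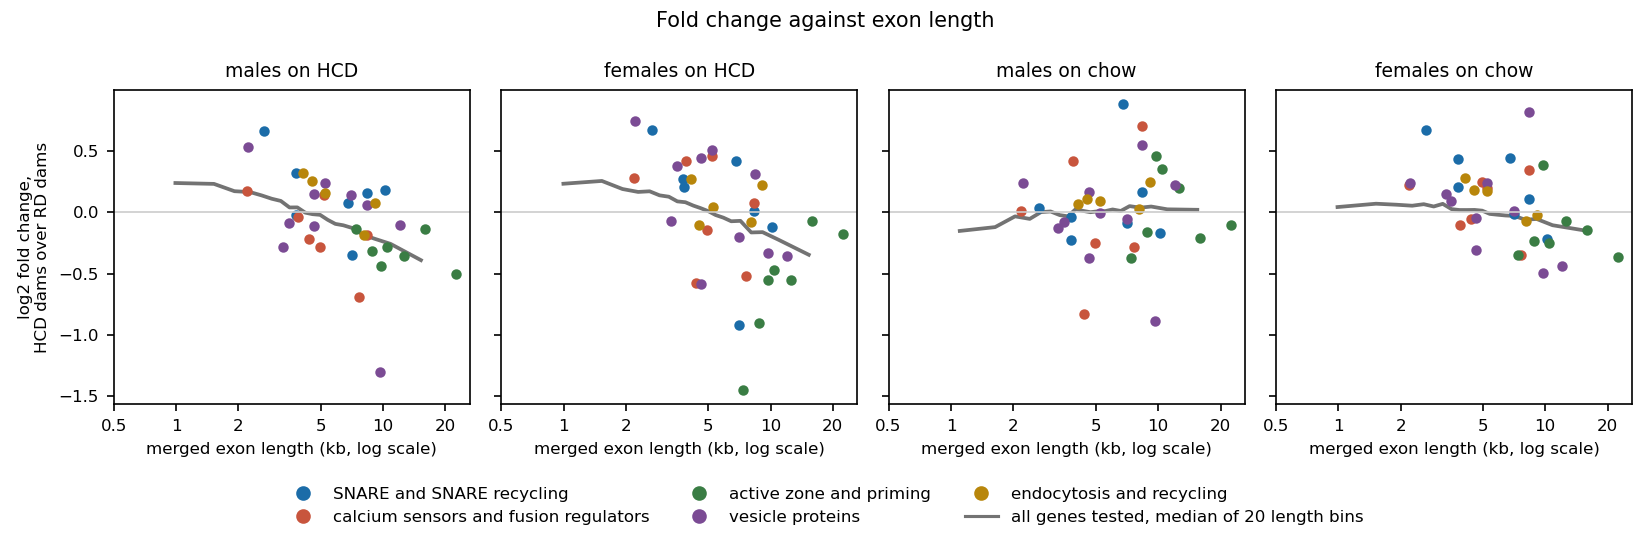
Log2 fold change (vertical axis, offspring of HCD dams over offspring of RD dams) against merged exon length in kb (log axis) for the tested members, coloured by class, with a grey line through the medians of 20 length bins of all genes tested. The grey line falls with length in males and females on HCD, where all 7 active zone genes lie below 0, and is near level in males on chow.

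The vesicle protein genes gave 3 of the 6 calls, in different directions and comparisons. Sv2c and Sv2b encode members of the SV2 family of vesicle glycoproteins, and Rab3a encodes the GTPase that marks vesicles ready to dock. Sv2c fell in males on HCD by 1.30 ± 0.32 (SE) on the log2 scale, at a mean of 240.3 normalized counts, by the authors' deposited table (adjusted p = 0.0355). Its log2 fold change was -0.33 ± 0.39 in females on HCD (adjusted p = 0.854), -0.89 ± 0.45 in males on chow (adjusted p = 1.00) and -0.49 ± 0.30 in females on chow (adjusted p = 0.931) in the authors' deposited tables. Sv2c was thus negative in 4 of 4 comparisons and passed in 1, but if both chow tables ran the other way it would be negative in 2 and positive in 2. With the trend over exon length and GC content removed, its value in males on HCD was -1.06, with an adjusted p of 0.299.

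In males on HCD 10 of 10 markers of striatum also had negative log2 fold changes (median -0.66, 0 called). So did 13 of 13 tested markers of hypothalamic neurons (median -0.93) and 10 of 10 of meninges and collagen (median -0.58, Ogn called). Among the hypothalamic markers Sim1, Fezf1, Oxt, Hcrt and Pmch fell in the authors' deposited table. The striatal list summed to 1137 CPM in that table, against 1248 to 2056 in the other 3, and the hypothalamic list to 253 against 167 to 480, with none of these genes listed at 0. Their part in the Sv2c result was not tested.

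Sv2b, the family member found mainly in glutamatergic neurons, rose in females on chow by a log2 fold change of 0.82 ± 0.20 (SE), 1.76-fold, by the authors' deposited table (adjusted p = 0.0233). Its log2 fold changes were 0.06 ± 0.27 in males on HCD, 0.31 ± 0.29 in females on HCD and 0.55 ± 0.30 in males on chow, with no pass. Sv2a, the widely expressed member, ranged from -0.04 to 0.45 and passed nowhere. In females on chow 10 of 10 markers of cortex and hippocampus were positive in the authors' deposited table (median 0.77, Mef2c called), as were 10 of 10 of striatum (median 0.40) and 10 of 10 of microglia (median 0.33). Markers of thalamus and habenula were positive in 0 of 10 (median -0.41, Calb2 and Gpr151 called). Those of hypothalamic neurons were positive in 0 of 11 (median -0.22, 0 called). The cortex and hippocampus list summed to 3522 CPM there, against 2242 to 2479 in the other 3 tables, with none at 0. Whether these lists bear on the Sv2b result was not tested.

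Rab3a rose in females on HCD by a log2 fold change of 0.74 ± 0.20 (SE), 1.67-fold, by the authors' deposited table (adjusted p = 0.0267). In the other comparisons it was positive without passing, at 0.53 ± 0.24 in males on HCD, 0.23 ± 0.35 in males on chow and 0.24 ± 0.22 in females on chow. Rab3a has the shortest exons of the called genes, 2.23 kb, of which 29 bases (1.30%) are shared with Mpv17l2 on the opposite strand. Without the trend over length and GC content its value in females on HCD was 0.61, with an adjusted p of 0.154. The value of Napb, with exons of 7.05 kb, was then -0.81, with an adjusted p of 0.133. In this comparison 8 of 15 markers of neurons in general were positive (median 0.19), and Tubb3 and Uchl1 among them rose in the authors' deposited table by log2 fold changes of 0.83 ± 0.18 and 1.05 ± 0.21. Of the glial lists, astrocyte markers were negative in 6 of 10 (median -0.28, Aqp4 called), oligodendrocyte markers in 7 of 10 (median -0.14, Ermn called) and microglial markers in 2 of 10 (median 0.30, 0 called). Rgs5 of mural cells fell by 1.57 ± 0.41, Xist fell by 0.94 ± 0.21 and Ramp3 of the thalamus list rose by 0.77 ± 0.23 on the log2 scale in the authors' deposited table. Their lists did not move as a whole: endothelial and mural markers were positive in 6 of 10 (median 0.10). Markers of thalamus and habenula were positive in 7 of 12 (median 0.03). None of the glial markers was listed at 0. Whether these genes bear on the values of Rab3a, Napb and Rims1 was not tested.

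The remaining vesicle genes passed nowhere. Rph3a, which encodes the Rab3 effector rabphilin, was negative in all 4 comparisons and the lowest of the class in females on HCD, at -0.59 ± 0.29 (adjusted p = 0.348) in the authors' deposited table. Rab3c was at -0.36 ± 0.22 in females on HCD and -0.44 ± 0.27 in females on chow. Rab3b ranged from -0.08 to 0.37. Syp, the abundant membrane protein synaptophysin, gave 0.51 ± 0.20 in females on HCD (adjusted p = 0.176), and between -0.00370 and 0.24 elsewhere. The synapsin genes, whose proteins tether the reserve pool, lay between -0.28 and 0.15 for Syn1 and between -0.20 and 0.14 for Syn2. The class medians were -0.01, 0.12, -0.03 and 0.05 in males on HCD, females on HCD, males on chow and females on chow, with 5, 5, 4 and 6 of 10 positive.

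Endocytosis and recycling genes spanned the narrowest range of the 5 classes. Their log2 fold changes in the authors' deposited tables lay between -0.19 and 0.32, and no unadjusted p was under 0.05. Bin1, which encodes a membrane-bending amphiphysin, was highest in males on HCD at 0.32 ± 0.25, in females on HCD at 0.27 ± 0.19 and in females on chow at 0.28 ± 0.19. Snap91, a clathrin assembly gene, was highest in males on chow at 0.25 ± 0.43. The phosphoinositide phosphatase gene Synj1 was lowest in males on HCD, males on chow and females on chow, at -0.19 ± 0.26, 0.03 ± 0.43 and -0.07 ± 0.26, and Amph was lowest in females on HCD at -0.11 ± 0.19. Dnm1, the dynamin that pinches off vesicles, ranged from 0.05 to 0.17. Class medians were 0.16 (4 of 5 positive), 0.05 (3 of 5), 0.09 (5 of 5) and 0.17 (3 of 5) in males on HCD, females on HCD, males on chow and females on chow.

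Signs were often shared over the comparisons. Of the 36 members 9 were positive in all 4 authors' deposited tables (Snap25, Stx1a, Nsf, Syt11, Cplx1, Sv2b, Rab3a, Dnm1 and Bin1), and 9 were negative in all 4 (Napb, Syt2, Doc2b, Unc13c, Rims1, Bsn, Pclo, Sv2c and Rph3a). Among the 12604 genes with an adjusted p in every table, 12.7% were positive and 11.9% negative in all 4. These counts depend on the direction of the chow tables: with the signs of both turned, an alternative chosen after seeing the data, 0 members were positive and 1 (Erc2) negative in all 4, against 6.71% and 7.06% of all genes. Across the 36 members, Spearman's correlation between the log2 fold changes of 2 comparisons was 0.70 for males on HCD with females on HCD, where all genes gave 0.67. For males on chow with females on chow it was 0.44 for members and 0.10 for all genes. The exon lengths and GC contents of the genes are common to all 4 tables.

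Whether the effect of the dam's diet on a member differed between comparisons was tested as the difference of the authors' deposited log2 fold changes over their joint standard error, with Benjamini-Hochberg adjustment over all genes. No member passed in any of the 4 differences with the signs as read. With the sign of the chow table turned, Rims1 passed for HCD minus chow in females (adjusted p = 0.0411), as did 186 genes in all, and no member passed in males (lowest adjusted p = 0.0708). Of all genes, 0.00775% passed for HCD minus chow in males, 0.00685% for HCD minus chow in females, 0% for males minus females on HCD and 0.00791% for males minus females on chow. The lowest adjusted p of a member was 0.978, 0.825, 1.00 and 0.999 in that order. At an unadjusted p under 0.05 the differences held 3 of 35, 3 of 36, 1 of 36 and 1 of 35 members. Of all genes, 3.84%, 5.00%, 0.642% and 3.05% stood there.

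With the signs as read, the calls above are therefore not shown to be particular to their comparison. For Snap25, HCD minus chow in males was -0.80 ± 0.28 (SE; 95% interval -1.35 to -0.25), and males minus females on chow was 0.44 ± 0.26 (-0.06 to 0.94). For Sv2c, males minus females on HCD was -0.97 ± 0.51 (-1.96 to 0.02), and HCD minus chow in males was -0.42 ± 0.55. Rims1 gave -1.10 ± 0.51 for HCD minus chow in females, and 1.32 ± 0.53 for males minus females on HCD. Napb and Erc2 gave -0.90 ± 0.34 and -0.94 ± 0.36 for HCD minus chow in females. In males Syt1 and Erc2 gave -0.89 ± 0.46 and -0.90 ± 0.44 for HCD minus chow, and Doc2b gave -0.78 ± 0.32 for males minus females on chow. Of the differences in this paragraph, those of Sv2c and the second of Snap25 had an unadjusted p above 0.05.

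By class, the median of HCD minus chow was -0.40 in males and -0.48 in females for the active zone genes, with 5 of 7 negative in each. For the SNARE genes it was 0.21 in males and -0.02 in females, for the calcium sensors -0.22 and -0.17, for the vesicle proteins -0.01 and 0.12, and for endocytosis 0.07 and -0.01. The median difference was -0.02 over 35 members in males and -0.06 over 36 members in females. All of these depend on the direction read for the chow tables.

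A wider list of 82 further genes of the vesicle cycle, of which 81 occur in the tables, gave 3 calls, all in females on HCD, where 80 were tested and 1.52% of all genes passed. At an unadjusted p under 0.05 stood 25 of those 80 (14 positive, 11 negative), where 13.3% of all genes did. Rimbp2, whose protein links RIM to calcium channels, fell by 1.49 ± 0.42 (SE) on the log2 scale, as the authors' deposited table has it (adjusted p = 0.0408). Rabac1, a Rab acceptor, rose by a log2 fold change of 0.95 ± 0.28 (adjusted p = 0.0480), and Ap2s1, the small subunit of the clathrin adaptor AP2, by 1.14 ± 0.25 (adjusted p = 0.00250). In the other 3 comparisons 0 of 80, 0 of 75 and 0 of 80 passed by the same DESeq test, with 6, 2 and 9 at an unadjusted p under 0.05 in males on HCD, males on chow and females on chow. Median log2 fold changes of the wider list were 0.01, 0.04, -0.00413 and 0.06 in males on HCD, females on HCD, males on chow and females on chow.

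The genes of the whole table most like Snap25 over the 4 comparisons, by the root mean square difference of the log2 fold changes in the authors' deposited tables, were Omg (0.07), AI593442 (0.10), Kcnj3 (0.10), Aim1l (0.12) and Ecscr (0.12). For Sv2c they were Gabre (0.25), Syt10 (0.26), Myh11 (0.26), Nkx2-1 (0.26) and Arhgap6 (0.27). The distance was not scaled to the size of the fold changes, so the distances of Sv2c and Snap25 do not rank how particular their patterns are. The search covered 12604 genes and rests on 4 values each.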

How the data were processed

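Poly(A) RNA of hypothalamus was sequenced with a stranded mRNA kit, per the labels' protocols. The submitters' processing notes name DESeq, without a version, and the build mm10, per the labels; aligner, counter and annotation: not given in the sources used here. The authors' 4 comparison tables were used, out of 12 files. Per the file headers, they hold a mean normalized count (a signal), a log2 fold change with its standard error, a Wald statistic (a score equal to their quotient), and p-values, raw and adjusted, as the authors deposited them. Genes with a mean under 10 have no adjusted p in the deposited tables, nor do 1554 further genes in males on chow and 342 in females on chow. The largest standard error of a deposited table was between 0.296 and 0.454, as in fold changes shrunken toward 0.

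The other 8 files hold 48 columns of single libraries under running numbers that match no label, so they were not used; for males on chow each holds 6 columns while 7 samples are labelled. The planned edgeR and DESeq2 fits of counts, and leaving out libraries, were therefore not run, and depth per sample is not given. The authors' DESeq Wald test replaced them, with calls at an adjusted p under 0.05. Differences between comparisons were referred to the normal distribution and adjusted by Benjamini-Hochberg. Shrunken fold changes can make this conservative, or make equal effects seem unequal. This step and the removal of the trend over exon length and GC content were tested on simulated data. The simulated noise was normal at the deposited standard errors, and the simulated trend was linear in log exon length. Other kinds of noise or trend were not tried. Gene models were those of GENCODE M21 on GRCm38, the same build as mm10, matched by symbol for 95.5% of symbols and for all 36 members.

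The members, classes, wider list and marker lists were chosen with earlier results of these data known. Named are all called members, Snap25 and Sv2c throughout, and the highest and lowest member of each class and comparison; of the wider list only called genes; and for Snap25 and Sv2c the 5 genes nearest in pattern. Computation used Python 3.11.15, numpy 2.4.6, pandas 2.3.3, scipy 1.17.1 and matplotlib 3.10.9.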

Additional observations from a re-analysis of the deposited data

How the results depend on the processing

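Snap25 in males on chow and Sv2b in females on chow kept their calls under all 6 alternatives. The alternatives were no filter on low counts, an adjusted p under 0.10 and a mean normalized count of at least 100. The others were the Wald statistic divided by its robust spread, centred fold changes, and removal of the trend over exon length and GC content. Of these, an adjusted p under 0.10 could not remove a call made at 0.05. Nor could the robust spread, which was under 1 in males on chow (0.847) and females on chow (0.961) and so enlarged the statistics. Dividing by the robust spread left 0 called members in males on HCD and 0 in females on HCD (adjusted p of Sv2c 0.358, Napb 0.146, Rab3a 0.116 and Rims1 0.161), and gave 2 in males on chow, Snap25 and Doc2b. Removing the trend left 0 in males on HCD and 0 in females on HCD. In males on chow, an adjusted p under 0.10 and a mean of at least 100 each gave 2, the same genes, Snap25 and Doc2b. Without the filter on low counts, Rims1 in females on HCD had an adjusted p of 0.0569. With the sign of the chow table turned, 1 member, Rims1, differed between females on HCD and females on chow (adjusted p = 0.0411). The cause of these shifts was not tested. Apart from turning the chow tables, no direction of a called member turned. Only centring and removal of the trend alter a fold change, so the other alternatives could not turn a direction. Of the counts of members called or differing, turned chow tables included, 39 stayed within 1.5 times and 8 did not. The 39 include counts that were 0 both times. The adjusted p-values of members lost under an alternative ranged from 0.0569 to 0.358. No paired analysis was possible because the library columns are named by running numbers only. Leaving out libraries and refitting the counts were not run for the same reason.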
